A study of Mus musculus with 84 samples.

Results

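A list of 44 interferon-induced mouse genes was described in the CUT&Tag profiles of adipocyte nuclei from lean, obese and formerly obese mice. The genes were listed by name as textbook targets of type I and type II interferon. The list was drawn up with earlier results of these data known, so shares of members set beside shares of all promoters are descriptions. A protein-coding promoter was annotated for 43 of them, among 21851 protein-coding promoters in all, and Mx2, annotated as a polymorphic pseudogene, was set outside the tests. The promoter was the region within 2000 bp of any annotated start site of the gene (GRCm38). CUT&Tag cuts and tags DNA next to a histone mark in intact nuclei, and 4 marks were profiled: H3K4me3 and H3K27ac, found at active promoters, H3K4me1, found at enhancers and around promoters, and H3K27me3, laid down by Polycomb at silent genes. A promoter with 1 bp or more under a peak counted as marked. The windows of 12 members overlapped that of another protein-coding gene. Among these were Ifi47 (with Olfr56), Ifit1 (with Ifit1bl2) and Isg15 (with Agrn and AW011738), so a peak there may belong to the other gene.

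The mice carried an AdipoERCre transgene and the NuTRAP reporter on a background that the labels spell C576BL6 and the methods C57BL/N, so that tamoxifen, given by gavage 2 times before the diets, labelled nuclei of adipocytes, which were pulled down from the frozen epididymal depot. The 12-week cohort held chow-fed mice of 18 weeks (C), mice of 18 weeks after 12 weeks of high-fat diet (H), chow-fed mice of 26 weeks (CC_s) and mice of 26 weeks given the 12 weeks of high-fat diet and then 8 weeks of chow (HC). The 25-week cohort held chow-fed mice of 31 weeks (CC_l), mice of 31 weeks after 25 weeks of high-fat diet (HH), chow-fed mice of 39 weeks (CCC) and mice of 39 weeks given the 25 weeks of high-fat diet and then 8 weeks of chow (HHC). Over the 4 marks there were 84 libraries in 32 groups, 20 groups of 3 and 12 of 2 libraries, which the labels call biological replicates. Each diet group (H, HC, HH, HHC) was compared with the control of its age (C, CC_s, CC_l, CCC). The nuclei are thus those in which the inducible Cre had acted, all groups were given tamoxifen, and the cohorts were separate sets of mice and libraries, so cohort and library set cannot be told apart. Libraries of different marks with the same number may come from the same mouse, which the labels do not state, so the marks are not independent of each other.

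Type I interferons signal through JAK kinases to a complex that contains STAT2 and IRF9 and binds the interferon-stimulated response element (ISRE) in target promoters. Interferon gamma acts at gamma-activated sites (GAS), and IRF1, itself a target, extends the response. Among the targets, IFIT, OAS and MX proteins block viral RNA and viral replication, immunity-related GTPases and guanylate-binding proteins attack vacuoles that hold pathogens, and PSMB8, PSMB9 and TAP1 prepare peptides for presentation on MHC class I. Immune cells and adipocytes of fat both respond to interferons.

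Several libraries stood apart, and the main values are given with and without them at the end. For H3K4me3, the treatment field of the labels named another group than the title in 4 libraries (replicate 2 of CC_l, replicates 2 and 3 of HH, and replicate 3 of CCC), and the title was followed. The diet libraries HC replicate 3, HH replicate 1, and HHC replicates 1 and 3 had fewer adipocyte markers, more lymphocyte or macrophage markers, or both. Of 12 adipocyte markers, 11 or 12 carried H3K4me3 in all libraries except H replicate 2 (9), HC replicate 3 (9) and HHC replicate 3 (8). Of 16 macrophage markers, 0 to 6 carried H3K4me3 in the controls. In H the number was 14, 14 and 0, in HC 1, 1 and 9, in each HH library 14, and in HHC 14, 12 and 12. Peak numbers were uneven too: H3K4me3 lists held 11249 (H replicate 3) to 41976 peaks, and the share of all promoters with H3K4me1 averaged 10.6% in CC_s and 44.9% in HHC. The peak lists give no read number per library. In bulk nuclei, a mark in fewer cells and less of the mark in each cell cannot be told apart.

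The members whose H3K4me1 differed most between diet and control libraries were Ifi47, Oas3, Ifi35, Ifit1 and Gm5431, and their promoters are shown because the next results turn on them. Each is the 250 bases before the RefSeq start (GRCm38.p6), written 5′ to 3′ on the strand of the gene, at chr11:49076337-49076586 (plus strand) for Ifi47, chr5:120777660-120777909 (minus) for Oas3, chr11:101448162-101448411 (plus) for Ifi35, chr19:34640639-34640888 (plus) for Ifit1 and chr11:48902153-48902402 (minus) for Gm5431. Capitals mark the ISRE core GAAANNGAAA on either strand.
Ifi47: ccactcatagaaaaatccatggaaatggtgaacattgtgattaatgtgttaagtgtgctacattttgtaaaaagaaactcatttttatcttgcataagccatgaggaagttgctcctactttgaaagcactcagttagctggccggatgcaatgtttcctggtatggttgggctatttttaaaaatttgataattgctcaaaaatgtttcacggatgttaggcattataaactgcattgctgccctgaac
Oas3: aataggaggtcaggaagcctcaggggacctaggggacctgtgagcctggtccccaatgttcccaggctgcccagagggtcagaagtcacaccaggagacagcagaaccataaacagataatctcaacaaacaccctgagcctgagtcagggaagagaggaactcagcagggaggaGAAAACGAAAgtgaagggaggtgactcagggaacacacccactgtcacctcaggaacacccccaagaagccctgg
Ifi35: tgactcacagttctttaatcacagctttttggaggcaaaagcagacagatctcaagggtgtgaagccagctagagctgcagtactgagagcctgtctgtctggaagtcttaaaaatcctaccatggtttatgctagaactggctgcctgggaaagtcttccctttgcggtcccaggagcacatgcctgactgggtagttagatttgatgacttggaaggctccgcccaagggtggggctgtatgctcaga
Ifit1: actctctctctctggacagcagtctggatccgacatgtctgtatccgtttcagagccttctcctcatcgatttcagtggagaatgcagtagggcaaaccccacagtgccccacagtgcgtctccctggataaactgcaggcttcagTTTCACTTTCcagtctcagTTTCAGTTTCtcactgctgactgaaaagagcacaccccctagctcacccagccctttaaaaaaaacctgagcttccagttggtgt
Gm5431: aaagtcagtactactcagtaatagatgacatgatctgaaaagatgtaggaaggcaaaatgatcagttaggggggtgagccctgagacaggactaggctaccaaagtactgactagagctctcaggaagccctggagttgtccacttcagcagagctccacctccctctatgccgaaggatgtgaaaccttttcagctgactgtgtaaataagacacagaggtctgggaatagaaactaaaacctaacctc
Ifit1 had 2 cores, both on the complementary strand, Oas3 had 1, and the other windows had none. Over the 36 members with a promoter in the RefSeq table, 19 (52.8%) held the core, against 936 (3.46%) of 27025 promoters of the same length. The GAS letters TTCNNNGAA, which read the same on both strands, were in 13 members (36.1%) and in 2197 (8.13%) of all promoters.

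H3K4me1 was the mark in which the number of members marked differed most between diet and control. With lists cut to equal peak numbers, the median difference per member was larger in H3K27ac, as given below. Of the 43 promoters, controls had 9.67 ± 1.53 marked in C (SD, n = 3), 7.33 ± 4.04 in CC_s (n = 3), 23.5 ± 3.54 in CC_l (n = 2) and 26.5 ± 3.54 in CCC (n = 2). Diet groups had 21 ± 8.72 for H, 16.3 ± 4.16 for HC, 35.3 ± 4.73 for HH and 39.7 ± 1.53 for HHC (n = 3 each). By library the counts were 11, 10 and 8 for C against 25, 27 and 11 for H, 3, 8 and 11 for CC_s against 15, 13 and 21 for HC, 26 and 21 for CC_l against 39, 37 and 30 for HH, and 24 and 29 for CCC against 41, 38 and 40 for HHC. Diet and control libraries overlapped only in the first of these comparisons, where H replicate 3, a library with few peaks in other marks, equalled the highest C library. The marked share of all promoters also differed, from 11.1% to 14.2%, 10.6% to 14.4%, 31.3% to 36.8% and 34.7% to 44.9% in the same order. Averaged over the 4 comparisons, diet libraries had 11.3 more members marked with H3K4me1, 6.58 more with H3K27ac, 3.75 more with H3K4me3 and 0.75 fewer with H3K27me3. The H3K4me1 difference was 10.2 in the 12-week and 12.5 in the 25-week cohort, whereas H3K27ac had 1.17 and 12, and H3K4me3 1.17 and 6.33. In H against C fewer members were marked with H3K4me3 (32.3 against 37) and with H3K27ac (21.7 against 22.7), and the H3K4me3 difference was 1.5 when the libraries were grouped by the treatment field.

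**Figure D1:**
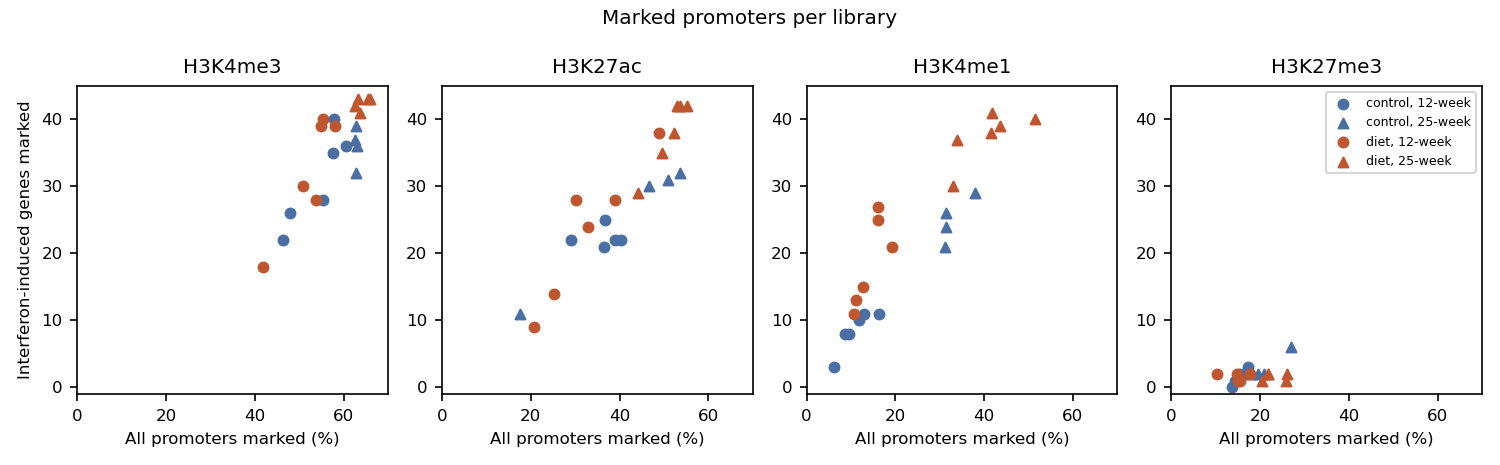
Members marked in each library (vertical axis, number of 43) against the share of all promoters marked in that library (horizontal axis, %), 1 panel per mark, with circles for the 12-week and triangles for the 25-week cohort, blue for control and orange for diet libraries. In H3K4me1 the HHC libraries lie highest, at 38 to 41 members, and CC_s replicate 1 lowest, at 3.

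The difference for each member was the share of diet libraries marked minus that of control libraries, averaged over the 4 comparisons and tested by a two-sided exact permutation test within comparisons, with Benjamini-Hochberg adjustment over all promoters that were marked in some but not all libraries. With H3K4me1, 35 members had a higher share with diet, only Ifih1 a lower one, and the other 7 an equal one. Among the 39 members tested, the median difference was 25 percentage points, against 8.33 over all promoters tested, of which 66.9% were higher. No member passed adjusted p < 0.05 (0% of all 13888 tested promoters did, by the same exact test). Before adjustment, 12 members of 39 (30.8%) had p under 0.05 with a higher share in diet libraries, against 5.46% of all promoters, and 0 had a lower share, against 1.58%. The 12 were Ifi47, Oas3, Ifi35, Ifit1, Oasl1, Gm5431, Mx1, Gm12185, Tgtp2, Psmb8, Gbp3 and Oas2. Their number was 7 without HH replicate 1, 1 in the 12-week cohort alone and 4 in the 25-week cohort alone. At least 7 promoters at the smallest p that the H3K4me1 design can give (2.5e-05) would have been needed for an adjusted call, and no promoter was marked in every diet library and in no control.

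**Figure D2:**
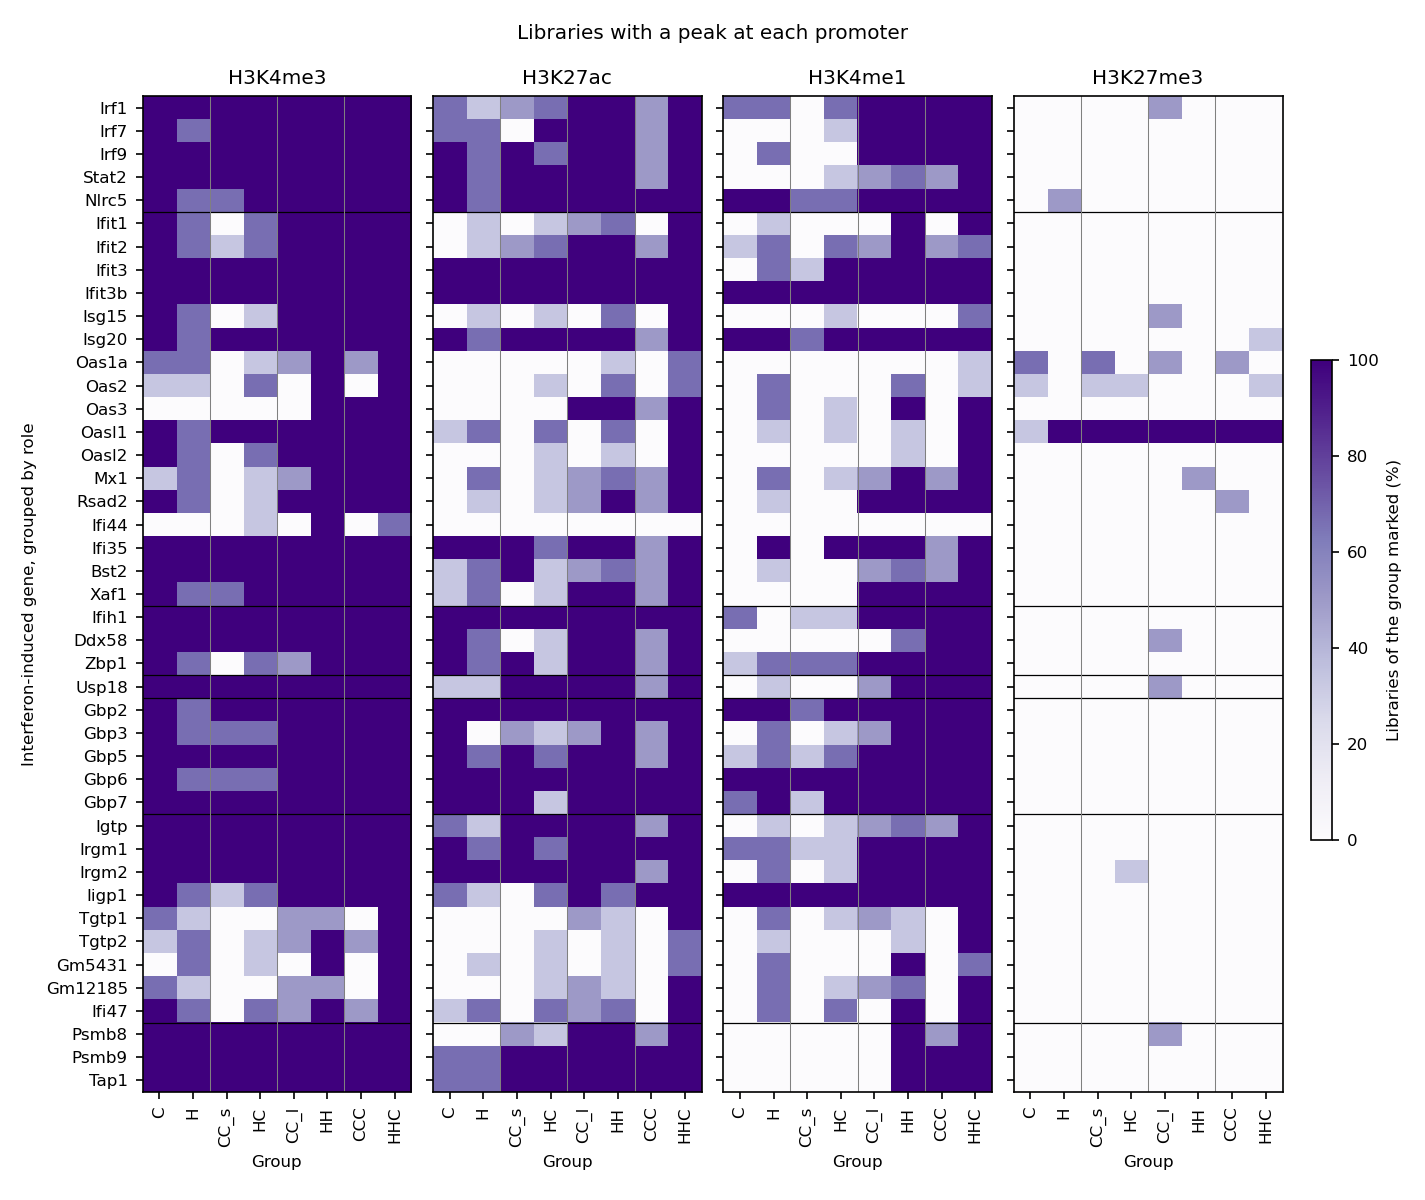
Share of the libraries of each group in which a member's promoter was marked (colour, %), for the 43 members ordered by role (vertical) and the 8 groups (horizontal), 1 panel per mark. H3K4me1 is darker in HH and HHC than in CC_l and CCC across most roles, while 30 members have no H3K27me3 in any library.

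The position of a promoter's highest peak coverage among all 21851 promoters of its library, as a percentile with 0 for no peak, gave the values by library. A marked promoter cannot fall under the share of unmarked promoters of its library, so these percentiles run higher in the 12-week cohort, where fewer promoters carried H3K4me1. Ifi47, a GTPase that interferon gamma induces (chr11:49076587-49096974, plus strand), was at 0 in all 10 control libraries. Its H3K4me1 percentile was 96.5, 98.1 and 0 for H, 0, 94.3 and 94.9 for HC, 74.8, 86 and 76.8 for HH, and 92, 75 and 82.1 for HHC. Every 25-week diet library was thus above every control, and 1 library each of H and HC was without a peak at any of the 3 annotated start sites of Ifi47. The peak of HC replicate 2 lay in the window of a start downstream of the one whose sequence is shown, where this library had none. Peaks of CC_l replicate 1 and HC replicate 1 in the same region stopped short of that downstream window and counted as 0. The share marked was 83.3 percentage points higher with diet (66.7 in the 12-week and 100 in the 25-week cohort, exact permutation p = 0.0004, adjusted p = 0.421).

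Oas3, a synthase of the 2-5A signal that activates RNase L (chr5:120753098-120777661, minus strand), was likewise unmarked in all 10 controls. Its H3K4me1 percentiles were 91.5, 0 and 91.3 for H, 87.5, 0 and 0 for HC, 81.3, 81.1 and 83.3 for HH, and 94.8, 75 and 73.8 for HHC. It was marked in 9 of 12 diet libraries (75 points higher, exact permutation p = 0.001, adjusted p = 0.421), in all of them in the 25-week cohort. Ifi35, an interferon-induced leucine zipper protein (chr11:101448407-101458698, plus strand), had the other pattern, with its difference larger in the 12-week cohort. Its H3K4me1 percentiles were 0 for C and CC_s, 91.5, 86 and 93.7 for H, 90.7, 89.2 and 81.5 for HC, 78.7 and 76.9 for CC_l, 85, 77.7 and 84.5 for HH, 0 and 70.8 for CCC, and 94.8, 75 and 76.7 for HHC. All 12 diet libraries were marked, against 3 of 10 controls (62.5 points, 100 in the 12-week and 25 in the 25-week cohort, exact permutation p = 0.001, adjusted p = 0.421). By percentile the difference at Ifi35 was 57.2 (exact permutation p = 5e-05, adjusted p = 0.0949), the smallest adjusted p of any member in H3K4me1.

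Ifit1, which binds viral RNA that lacks the cap marks of the host (chr19:34640871-34650009, plus strand), had H3K4me1 in no control library. Its percentiles were 0, 93.6 and 0 in H, 0 in all 3 HC libraries, 72.3, 66.7 and 80.6 in HH, and 93.6, 83.4 and 76.7 in HHC. The difference of 58.3 points (exact permutation p = 0.005, adjusted p = 0.514) came from 100 points in the 25-week and 16.7 in the 12-week cohort. Gm5431, an immunity-related GTPase gene (chr11:48887422-48902214, minus strand), was also unmarked in all controls, with 88.1, 84 and 0 for H, 0 for HC, 81.3, 81.1 and 67.9 for HH, and 85.8, 0 and 56.2 for HHC. Its difference was 58.3 points too (exact permutation p = 0.012, adjusted p = 0.565).

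**Figure D3:**
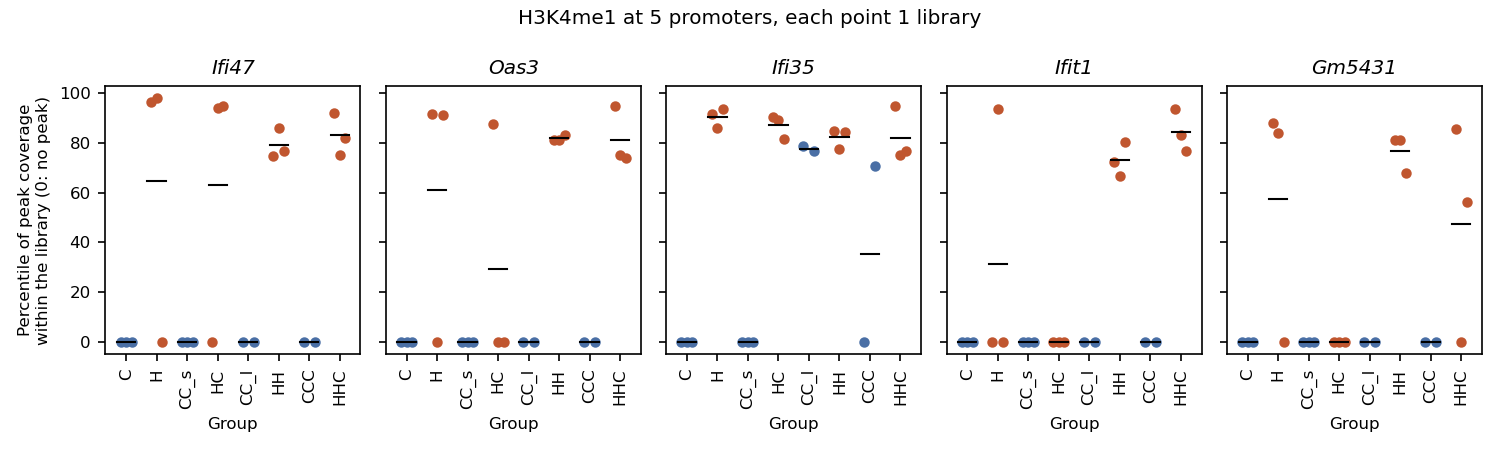
H3K4me1 percentile of the highest promoter peak (vertical axis, 0 for no peak to 100) in each library of the 8 groups (horizontal axis) for Ifi47, Oas3, Ifi35, Ifit1 and Gm5431, with points for libraries, lines for group means, blue for control and orange for diet. The controls of Ifi47, Oas3, Ifit1 and Gm5431 are all at 0, and those of Ifi35 at 0 in C and CC_s.

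Percentiles as a whole gave the same split of counts. In H3K4me1, 16 of 42 members (38.1%) had a higher percentile with diet at an unadjusted exact permutation p under 0.05, against 9.14% of all promoters, and 1 (2.38%) had a lower one, against 4.93%. The lower one was Gbp6, at 94.4 ± 2.53 in controls (SD, n = 10) and 86.9 ± 7.44 in diet libraries (n = 12; difference -7.12, exact permutation p = 0.0067, adjusted p = 0.185). The adjusted calls were 0 of 42 members and 0% of all promoters.

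By role, the transcription factors of the response (Irf1, Irf7, Irf9, Stat2 and Nlrc5) carried H3K4me3 in nearly all libraries and differed little. Irf1, Irf9 and Stat2 had it in all 21 libraries, Irf7 in all but 1, and Nlrc5, the activator of MHC class I genes, in 9 of 10 controls and 10 of 11 diet libraries. In H3K4me1 their median difference was 16.7 points, and 0 of the 5 had an unadjusted exact p under 0.05. Irf7, the factor that amplifies type I interferon itself, had H3K27ac percentiles of 0 and 0 in CC_s and 81.2, 81.5 and 87.7 in HC, so the groups did not overlap. Over all comparisons Irf7 had H3K27ac in 5 of 9 control and 11 of 12 diet libraries (37.5 points, exact permutation p = 0.068). Nlrc5 had H3K27ac at a percentile of 94.7 ± 4.48 in controls (n = 9) and 73.2 ± 27.4 in diet libraries (n = 12), the only one of 10 members with a lower H3K27ac percentile whose unadjusted p was under 0.05 (exact permutation p = 0.0117, adjusted p = 0.206).

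The 17 antiviral effectors with a promoter, untested ones at a difference of 0 included, had H3K4me1 and H3K27ac median differences of 33.3 and 25 points, and 14 of the 17 were higher with diet in each mark. Besides Ifi47, which is a GTPase, the members with p under 0.05 in H3K27ac were effectors: Oasl1, Isg15 and Rsad2. Oasl1, which represses translation of Irf7 mRNA, had H3K27ac percentiles of 0, 0 and 89.2 for C, 87.9, 91.3 and 0 for H, 0, 84.7 and 97.9 for HC, 80.6, 77.3 and 0 for HH, and 80.9, 92.7 and 99.8 for HHC, with 0 for CC_s, CC_l and CCC. It was marked in 1 of 9 controls and 9 of 12 diet libraries (66.7 points, exact permutation p = 0.0081, adjusted p = 0.782). Only C replicate 3 among the controls had the peak.

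Isg15, a ubiquitin-like modifier, had H3K27ac in no control, and its percentiles were 0, 72.1 and 0 for H, 0, 0 and 61.8 for HC, 52.5, 0 and 71.8 for HH, and 60.5, 50.1 and 55.9 for HHC (58.3 points, exact permutation p = 0.015, adjusted p = 0.805). Its marked libraries were thus single in H and HC, and complete only in HHC. Rsad2, the antiviral enzyme viperin, had H3K27ac in 2 of 9 controls and 8 of 12 diet libraries, with 0 in all C and CC_s libraries, 59.5 and 0 in CC_l, 76.9, 70.9 and 56.7 in HH, 65.2 and 0 in CCC, and 90, 58.9 and 75.9 in HHC (exact permutation p = 0.048). In the 12-week cohort Rsad2 had a peak only in H replicate 2 and HC replicate 3.

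Across all members, H3K27ac had 4 of 37 (10.8%) higher with diet at an unadjusted exact p under 0.05, against 3.19% of all promoters, and 0 lower, against 1.73%. By percentile it was 8 of 42 (19%) higher against 7.49%, and Nlrc5 alone (2.38%) lower against 6.79%. The 4 became 2 in each of 10 of the fits without a single library, 7 without HH replicate 3, and 0 in either cohort alone. Adjusted calls were 0 of 37 and 0 of 42 members, and 0% of all promoters, by the exact permutation test. The median difference of the members was 12.5 points, against 8.33 over all promoters tested.

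In H3K4me3, most effectors were marked whatever the diet: Ifit3, Ifit3b, Ifi35 and Bst2 had a peak in all 21 libraries. Oas2, another 2-5A synthase, was the effector with the largest difference, with percentiles of 0, 0 and 42.3 in C, and 0 in CC_s, CC_l and CCC, while H had 46.8, 0 and 0, HC 0, 52.1 and 42.7, HH 44.9 and 36.5, and HHC 40.9, 38.1 and 36.7. It was marked in 1 of 10 controls and 8 of 11 diet libraries (66.7 points, exact permutation p = 0.00667, adjusted p = 0.645). Ifi44, a member with neither H3K27ac nor H3K4me1 in any library, had H3K4me3 in no control and in 5 of 11 diet libraries, at 51.7, 0 and 0 for HC, 38.6 and 36.8 for HH, and 0, 36.3 and 38.5 for HHC (exact permutation p = 0.0333, adjusted p = 0.736). Its marked libraries were both HH libraries, 2 of 3 HHC libraries and 1 of 3 HC libraries, with none in H.

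Bst2, the tetherin that holds budding virus at the cell surface, carried H3K4me3 in every library, so only its percentile could differ in that mark. In H3K4me3 its values were 59.3, 69.1 and 58.5 for C, 58.7, 92.2 and 96.9 for H, 58.2, 67.8 and 54.5 for CC_s, 75.2, 90 and 63.4 for HC, 58 and 52.3 for CC_l, 69.2 and 65.5 for HH, 67.5 and 52.4 for CCC, and 85.8, 69.1 and 71.6 for HHC. With groups by title, no diet library of Bst2 overlapped its controls in the 25-week cohort, and in the 12-week cohort both comparisons overlapped. Grouped by the treatment field, HH would hold 52.3 and 52.4, under 58 and 65.5 in CC_l. CCC would then hold 67.5 and 69.2 and overlap HHC, whose lowest value was 69.1. The difference was 16 percentile points (59.8 ± 6.29 in 10 controls, 76.1 ± 12.9 in 11 diet libraries, exact permutation p = 0.00192, adjusted p = 0.107).

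The sensors of viral nucleic acid (Ifih1, Ddx58, Zbp1) had the lowest median H3K4me1 difference of any role, 8.33 points. Ifih1, which encodes the RNA sensor MDA5, had H3K27ac and H3K4me3 in every library, and H3K4me1 in 7 of 10 controls and 7 of 12 diet libraries (-16.7 points, exact permutation p = 0.56). Its H3K4me1 percentiles were 88.9, 0 and 91.8 in C and 0 in all 3 H libraries, and every library of the 25-week cohort was marked. Ddx58, which encodes RIG-I, and Zbp1, a sensor of Z-form nucleic acid, had H3K4me1 differences of 16.7 and 8.33 points.

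Usp18, which removes ISG15 from proteins and damps signalling at the type I receptor, carried H3K4me3 in every library. Its H3K4me3 percentiles were 76.2, 70.5 and 71.7 for C, 95.4, 88.7 and 72.9 for H, 58.6, 73.7 and 69.2 for CC_s, 73.1, 78.2 and 93.9 for HC, 78.8 and 71.7 for CC_l, 78 and 77.2 for HH, 64.7 and 70.3 for CCC, and 93.5, 77 and 93.3 for HHC. With groups by title, HHC lay above CCC without overlap, and HH fell within the range of CC_l. Grouped by the treatment field, HH would hold 71.7 and 70.3, under 78.8 and 77.2 in CC_l. CCC would then hold 64.7 and 78 and overlap HHC, whose lowest value was 77. The difference was 12.5 percentile points (exact permutation p = 0.00254, adjusted p = 0.122).

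Over all members, H3K4me3 had 3 of 25 (12%) higher with diet at an unadjusted exact p under 0.05 (Oas2, Gm5431, Ifi44), against 3.41% of all promoters, and 0 lower, against 1.8%. By percentile 11 of 43 (25.6%) were higher, against 6.11%, and 0 lower, against 7.95%. The 11 were Bst2, Usp18, Psmb8, Ifit3, Oas1a, Oas2, Mx1, Tgtp2, Gm5431, Ifi44 and Ifi47. Adjusted calls were 0 of 25 members (0% of all promoters) by presence and 0 of 43 (0.176% of all promoters) by percentile. Markers of other cells moved with diet in this mark too: 9 of the 15 macrophage markers tested had H3K4me3 more often with diet at p under 0.05 in the same exact test, as had 3 of 12 lymphocyte and 4 of 9 endothelial markers. Their part in the members' H3K4me3 was not tested.

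In H3K4me1, 1 to 7 of the 16 macrophage markers were marked in each library (1 to 5 in the controls), 10 of the 16 in no control, 5 in no library, and 0 of 11 tested macrophage, 0 of 10 lymphocyte and 1 of 8 endothelial markers were higher with diet at an unadjusted exact permutation p under 0.05. The adipocyte markers had a median H3K4me1 difference of -16.7 points, with 1 of 12 lower at p under 0.05 in that exact test. In H3K27ac, 2 of 14 macrophage, 0 of 12 lymphocyte and 3 of 9 endothelial markers were higher at p under 0.05 (exact), with median differences of 25, 12.5 and 20.8 points. Their part in the members' H3K4me1 and H3K27ac was not tested. Lymphocyte markers with H3K4me1 numbered 9 of 12 in HHC replicate 1 and at most 4 in every other library. Adipocyte markers with H3K4me1 numbered 3 in HC replicate 3, 4 in HH replicate 1 and 7 in HHC replicate 3.

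The guanylate-binding proteins (Gbp2, Gbp3, Gbp5, Gbp6, Gbp7), which coat and break pathogen vacuoles, were already marked in most controls. Gbp6 carried H3K27ac and H3K4me1 in every library, and Gbp2 H3K27ac in every library. Their median differences were 16.7 points in H3K4me1, -4.17 in H3K27ac and -8.33 in H3K4me3. Gbp3 was the only one with an unadjusted p under 0.05 in H3K4me1, marked in 3 of 10 control and 9 of 12 diet libraries (37.5 points, exact permutation p = 0.04). In H3K27ac, Gbp3 had percentiles of 63.8, 62.7 and 77.9 in C and 0 in all 3 H libraries, the only loss of an active mark by a member in any comparison (423 of all promoters, 1.94%, were lost in H). In the other diet groups H3K27ac of Gbp3 was at 0, 0 and 60.4 for HC, 54.8, 56.5 and 70.4 for HH, and 79, 68.1 and 58 for HHC, so that its difference was -58.3 points in the 12-week and 50 in the 25-week cohort (exact permutation p = 1 overall).

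The immunity-related GTPases had the largest median difference of any role with more than 1 member in H3K4me1, at 41.7 points, with 7 of 9 higher, and 20.8 points in H3K27ac and 16.7 in H3K4me3. A stretch of chromosome 11 (48861968 to 49096974) holds 6 of them: Irgm1, Gm5431, Gm12185, Tgtp1, Tgtp2 and Ifi47. Tgtp1 and Gm12185 share a promoter window, and Tgtp1 and Tgtp2 are near-identical copies, so the placement of reads between them is uncertain. Gm12185 had H3K4me1 at 92.9, 93 and 0 for H, 0, 0 and 96.7 for HC, 69.1 and 0 for CC_l, 88.1, 69.8 and 0 for HH, and 90, 61.7 and 79.6 for HHC, with 0 for C, CC_s and CCC (54.2 points, exact permutation p = 0.026). Tgtp2 was marked in no control and 5 of 12 diet libraries (exact permutation p = 0.03). Irgm1, at the edge of the stretch, was marked in 7 of 10 controls and 9 of 12 diet libraries and had no difference.

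Over the whole stretch and 10 kb to each side, H3K4me1 peaks covered 0.545%, 0.925% and 0% of the bases in C and 5.34%, 11.7% and 0.887% in H. In CC_s they covered 0%, 1% and 0%, against 2.25%, 1.45% and 4.6% in HC. In the 25-week cohort the cover was 4.25% and 7.1% in CC_l against 15.7%, 15% and 11.2% in HH, and 2.67% and 6.28% in CCC against 35.1%, 15.3% and 31.6% in HHC. H replicate 3 lay within the C range, and the diet libraries were above their controls in the other 3 comparisons. HHC replicates 1 and 3, the pair with the widest cover, are also among the libraries that stand apart in markers. Cover by H3K4me3 averaged 24.6% in HHC against 6.98% in CCC and by H3K27ac 25.3% against 3.78%. It was not higher in H than in C, at 7.22% against 7.28% for H3K4me3 and 3.17% against 3.68% for H3K27ac. HC averaged 5.8% against 3.71% in CC_s for H3K4me3 and 5.43% against 1.95% for H3K27ac. HH averaged 14.8% against 6.04% in CC_l for H3K4me3, while its H3K27ac cover (5.3% to 24.5%) overlapped that of CC_l (7.56% to 10.3%). H3K27me3 peaks covered at most 0.778% in any group's mean.

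**Figure D4:**
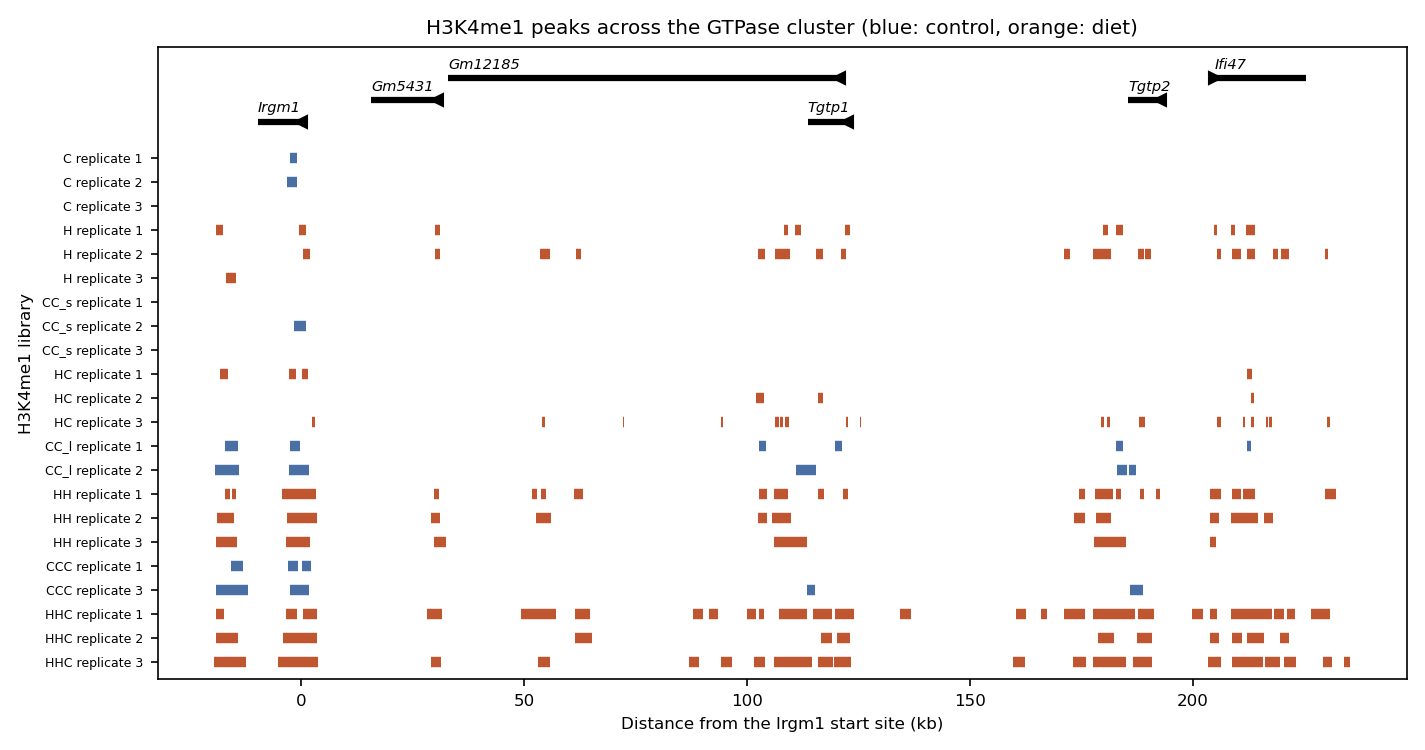
H3K4me1 peaks over the immunity-related GTPase genes of chromosome 11, 1 row per library (vertical, grouped by diet, blue control and orange diet), against the distance from the start site of Irgm1 (horizontal, kb), with Irgm1, Gm5431, Gm12185, Tgtp1, Tgtp2 and Ifi47 drawn at the top. Peaks are dense in HH and HHC, and 2 of 3 CC_s rows are empty.

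At Gm5431 the H3K4me3 values followed the same division: 0 in all 10 controls, 47.3, 46.7 and 0 for H, 0, 0 and 50.7 for HC, 44.9 and 43.1 for HH, and 54.3, 36.3 and 40.5 for HHC (75 points, exact permutation p = 0.00167, adjusted p = 0.645). Ifi47 had H3K27ac in 2 of 9 controls, at 64 for C replicate 1 and 55 for CC_l replicate 1, and in 9 of 12 diet libraries, at 63.8, 71.1 and 0 for H, 0, 67.7 and 76 for HC, 67.9, 57.3 and 0 for HH, and 83.5, 58.1 and 67.3 for HHC (54.2 points, exact permutation p = 0.0329, adjusted p = 0.92). The pair Igtp and Irgm2, on another part of chromosome 11 (58199556 to 58222782), had a mean H3K4me1 cover of 19% in HH against 8.43% in CC_l and 43.1% in HHC against 10.3% in CCC. By library, HH (10.2% to 28.3%) overlapped CC_l (4.04% to 12.8%), while HHC (26.6% to 66%) lay above CCC (6.95% to 13.6%). No C or CC_s library had a peak there, nor had 1 of 3 H and 2 of 3 HC libraries.

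The antigen-processing genes Psmb8, Psmb9 and Tap1 lie together on chromosome 17 (34181987 to 34201454), and Psmb9 and Tap1 share a promoter window. Psmb8 and Psmb9 are subunits of the immunoproteasome, and Tap1 is a subunit of the peptide transporter. All 3 had H3K4me3 in every library. Psmb9 had H3K4me1 in no library of the 12-week cohort and in neither CC_l library, but at 88.1, 77.7 and 75.9 in HH, at 71.4 and 67.1 in CCC and at 99.6, 66.7 and 70.9 in HHC, so that it separated HH from CC_l and not HHC from CCC. Psmb8 had H3K4me1 at 57, 75.1 and 73.4 in HH, 0 and 62.6 in CCC, and 99.6, 58.7 and 86.3 in HHC, and in no other library (37.5 points, exact permutation p = 0.04).

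Members gained in a comparison, meaning marked in every diet library and in no control of it, were counted without a test and set beside the share of all promoters gained. In H3K4me1, Ifi35 was gained in H (0.59% of all promoters) and in HC (0.215%). In HH, 7 members (16.3% of 43, against 2%) were gained: Ifit1, Oas3, Gm5431, Ifi47, Psmb8, Psmb9 and Tap1. In HHC, 8 members (18.6%, against 3.98%) were gained: Ifit1, Oas3, Oasl1, Oasl2, Tgtp1, Tgtp2, Gm12185 and Ifi47. Ifit1, Oas3 and Ifi47 were on both lists. No member was lost in H3K4me1 (1.57% of all promoters were lost in at least 1 comparison).

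H3K27ac was gained by no member in H (0.146% of all promoters) or HH (0.448%), by Irf7 in HC (0.297%), and by 7 members (16.3%, against 2.32%) in HHC: Ifit1, Isg15, Oasl1, Oasl2, Tgtp1, Gm12185 and Ifi47. Without CCC replicate 1, which leaves 1 control with few peaks, the H3K27ac gains over the 4 comparisons went from 8 to 28. Gbp3 was the member lost in any comparison, against 2.64% of all promoters. H3K4me3 was gained by no member in H (0.00458%) or HC (0.32%), by 4 members (9.3%, against 1.32%) in HH, namely Oas2, Oas3, Gm5431 and Ifi44, and by 4 (9.3%, against 1.39%) in HHC, namely Oas2, Tgtp1, Gm5431 and Gm12185. No member was lost in H3K4me3 (2.52% of all promoters were). The HH groups of H3K4me3 had 2 libraries on each side, where full separation is reached more easily.

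**Figure D5:**
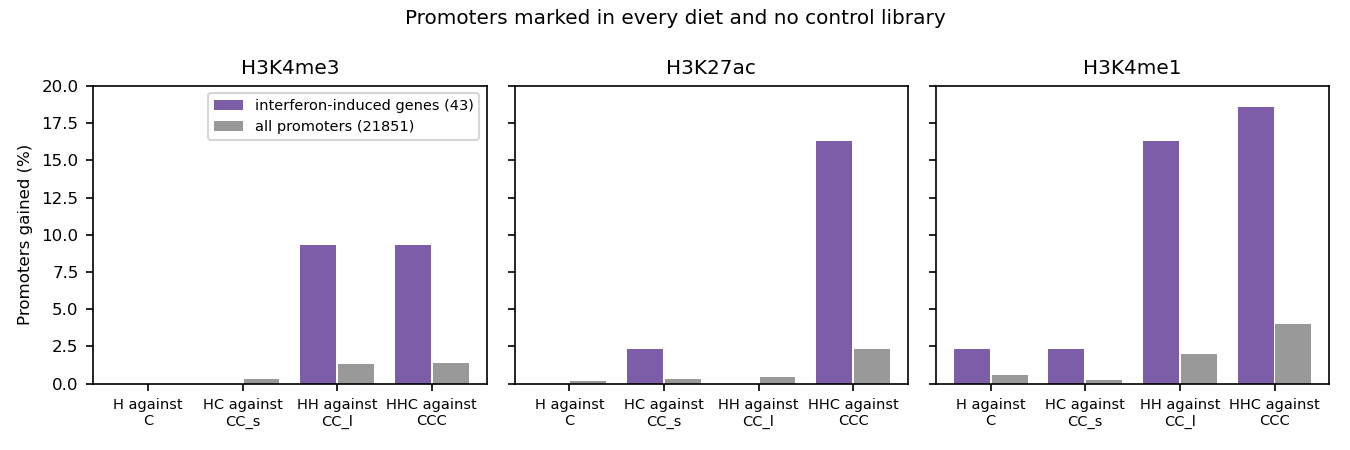
Share of promoters gained (vertical axis, %) in each of the 4 age-matched comparisons (horizontal axis), for the 43 members (purple bars) and all 21851 promoters (grey bars), 1 panel each for H3K4me3, H3K27ac and H3K4me1. Members reach 16.3% and 18.6% in H3K4me1 in the 25-week comparisons and 16.3% in H3K27ac of HHC, and stay at or below 2.33% in every 12-week comparison.

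Controls of different ages also differed from each other. Compared with C, 6 members (14%, against 1.73% of all promoters) had lost H3K4me3 in CC_s: Ifit1, Isg15, Oasl2, Rsad2, Ifi47 and Zbp1, where CC_s replicates 1 and 2 had only 12534 and 14617 peaks. Compared with CC_l, 3 members (6.98%, against 2.31%) had gained H3K4me1 in CCC: Ddx58, Psmb9 and Tap1. Age, the change of chow product that the methods give for the weeks after the diet, and peak number cannot be told apart in these contrasts.

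H3K27me3 was rare at the members. Of the 43 promoters, 30 had it in no library, and group means ran from 1.33 (C) to 4 (CC_l) members. Oas1a, a 2-5A synthase, was the exception in the comparison: its percentiles were 0, 88.1 and 96.2 in C, 86, 0 and 87.5 in CC_s, 0 and 80.8 in CC_l, and 0 and 92.4 in CCC, and 0 in all 10 diet libraries. The mark was thus in 6 of 10 controls, at least 1 in each control group, and in no diet library (-58.3 points, exact permutation p = 0.018, adjusted p = 0.388). At equal peak numbers it was in 4 controls and 0 diet libraries (exact permutation p = 0.08), and without the libraries apart in markers in 6 of 10 and 0 of 7 (exact permutation p = 0.0533). Over the cluster of Oas2, Oas3 and Oas1a as a whole, H3K27me3 peaks covered on average 7.88% in C and 0.925% in H. The cover was 4.77% in CC_s and 1.63% in HC, and 10.7% in CC_l and 6.97% in HH. The means went the other way only in the last comparison, with 8.6% in CCC and 11.8% in HHC. By library only H (0.376% to 1.47%) and C (4.96% to 9.76%) did not overlap. HC (0% to 4.77%) overlapped CC_s (2.25% to 6.18%), HH (4.03% to 9.91%) overlapped CC_l (8.49% to 12.9%), and HHC (10.4% to 13.6%) overlapped CCC (5.98% to 11.2%). With windows of 500 or 5000 bp no member was lower in H3K27me3 at an unadjusted exact p under 0.05. Oas1a was 1 of 13 members tested (7.69%) that were lower with diet before adjustment, against 4.6% of all promoters, and also by percentile, against 10.1%. Higher with diet were 0 members by presence (4.57% of all promoters) and 0 by percentile (5.83%). Adjusted calls were 0 of 13 members by either measure in the exact permutation test (0% of all promoters by presence, 0.72% by percentile), and no member was gained (3.44%) or lost (3.53%) in any comparison.

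Oasl1 was the only member with H3K27me3 in most libraries (18 of 20), all through 1 narrow peak at chr5:114922445-114922699. A narrow peak at that place was also in 6 of 21 H3K4me3, 2 of 21 H3K27ac and 1 of 22 H3K4me1 libraries. With that spot set aside, Oasl1 had no H3K27me3 in any library, H3K27ac in 0 of 9 controls and 8 of 12 diet libraries, H3K4me1 in 0 of 10 and 5 of 12, and H3K4me3 in 8 of 10 controls and 9 of 11 diet libraries.

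Read together per gene, 9 members had no mark in more than 50% of control libraries, and 1 had none in more than 50% of diet libraries, against 30.7% and 31.2% of all promoters. All 3 active marks were present in more than 50% of libraries at 12 members (27.9%) in controls and 25 (58.1%) in diet libraries, against 11.8% and 19% of all promoters. At 11 members (Ifit1, Oas1a, Oas2, Oas3, Oasl2, Mx1, Tgtp1, Tgtp2, Gm5431, Gm12185 and Ifi47) the share was higher with diet in each of the 3 active marks (25.6%, against 5.74% of all promoters). Across the 43 members, the differences in H3K27ac and in H3K4me1 had a Pearson r of 0.504, against 0.419 over all 21851 promoters, and those in H3K4me3 and H3K4me1 one of 0.378, against 0.276. The points share libraries, and neighbouring genes share peaks, so these are descriptions.

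Every H3K4me1 list was also reduced to its 14486 peaks of largest total coverage, which depends on peak width as well as height. Members marked then averaged 8.33 for C and 13 for H, and 6 for CC_s and 9.67 for HC. In the 25-week cohort they averaged 8 for CC_l and 22.7 for HH, and 9 for CCC and 29.7 for HHC. All promoters marked went from 13.6% to 19.2% between CC_l and HH and from 16.2% to 22.8% between CCC and HHC in the same lists. Ifi47 and Oas3 were then each marked in 0 of 10 controls and 8 of 12 diet libraries (66.7 points, exact permutation p = 0.006 and 0.002) and Ifi35 in 0 and 7 (exact permutation p = 0.005), but Ifit1 in only 3 and Gm5431 in 1 diet library. H3K4me3 at equal peak numbers (11249) was in no library at Oas2 and in 2 diet libraries at Gm5431, while Ifit1 had it in 6 diet libraries and no control (50 points, exact permutation p = 0.01). With 12174 H3K27ac peaks per library, Oasl1 was marked in 0 controls and 4 diet libraries (exact permutation p = 0.14) and Isg15 in 0 and 3 (exact permutation p = 0.22), and the median difference of the members was 25 points, against 20.8 in H3K4me1 and 8.33 over all promoters tested in either mark.

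Without HC replicate 3, HH replicate 1, and HHC replicates 1 and 3, the H3K4me1 difference in members marked was 9.88. The median difference was 25 points, against 8.33 over all promoters. Kept in this setting were H replicates 1 and 2 and HH replicates 2 and 3, each with H3K4me3 at 14 of 16 macrophage markers. HHC replicate 2, also kept, had 12. The setting thus did not leave out every library with many such markers. Ifi47 and Oas3 then had H3K4me1 in 0 of 10 controls and 6 of 8 diet libraries (79.2 points each, exact permutation p = 0.00444), Ifi35 in 3 of 10 and 8 of 8 (p = 0.00833 by the same exact test) and Ifit1 in 0 of 10 and 4 of 8 (p = 0.0278, exact). Gm5431 was in 0 of 10 and 4 of 8 (41.7 points, exact permutation p = 0.0667). In all, 6 of 37 members then had an unadjusted exact p under 0.05, against 2.25% of all promoters, and Psmb8, Tgtp2, Gm12185, Oasl1 and Oas2 were no longer among them (exact permutation p = 0.167, 0.167, 0.111, 0.0833 and 0.2). H3K27ac had 0 of 35 such members, against 0.847%, and a median difference of 4.17 points, against 0, with Oasl1 in 1 of 9 controls and 5 of 8 diet libraries (exact permutation p = 0.05), Isg15 in 0 of 9 and 3 of 8 (exact permutation p = 0.0833) and Rsad2 in 2 of 9 and 4 of 8 (exact permutation p = 0.25).

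In H3K4me3 the same libraries, 3 of them in this mark, left Oas2, Gm5431 and Ifi44 at 62.5, 66.7 and 62.5 points (exact permutation p = 0.0311, 0.0111 and 0.0222). The H3K4me3 percentile difference was then 16 at Bst2 (exact permutation p = 0.00361) and 8.29 at Usp18 (p = 0.0108, exact). With the 4 libraries whose treatment field and title disagree set aside, HH was left without libraries, and over the remaining 3 comparisons Gm5431 was at 66.7 points (exact permutation p = 0.025), Oas2 at 55.6 (exact p = 0.1) and Ifi44 at 33.3 (exact p = 0.5), with percentile differences of 14.8 at Bst2 (exact p = 0.0281) and 16.9 at Usp18 (exact p = 0.0025). With those 4 libraries grouped by the treatment field, Gm5431 was at 25 points (exact permutation p = 0.32), Oas2 at 16.7 and Ifi44 at 0. The H3K4me3 values of these 3 genes therefore depend on which label is right, as do the 25-week H3K4me3 percentiles of Bst2 and Usp18. The other marks had no such mismatch.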

How the data were processed

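CUT&Tag peak lists of 84 libraries (4 marks, 8 diet groups) were used. Per the labels and methods, the authors trimmed reads with Trim Galore (0.6.6), aligned them to mm10 (GRCm38) with Bowtie2 (2.4.4), converted them with SAMtools (1.13) and bedtools (2.30), and called peaks in each library separately with SEACR (1.3, stringent, threshold 0.01). The deposited signal columns hold each peak's total and highest coverage, whole numbers in all 84 lists and thus not scaled to depth, so coverage was compared only as a rank within its library, and no depth per library or counting interval can be given. A list cut at a threshold also leaves weak marking at 0.

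Groups followed the sample titles. Promoters (within 2000 bp of a start site of a protein-coding transcript) came from the GENCODE M21 basic set without the mitochondrial genome, 21851 genes with 41438 start sites. For each promoter and mark, the share of libraries marked and the percentile of the highest peak were compared between each diet group and its age-matched control, averaged over the 4 comparisons, and tested by a two-sided exact permutation test within comparisons (24000 relabellings for H3K4me3, 20000 for H3K27ac, 40000 for H3K4me1 and 12000 for H3K27me3), with Benjamini-Hochberg adjustment over all promoters tested and a threshold of 0.05. Gains and losses were counted without a test. On simulated peak data, 200 of 200 changed promoters among 21851 were recovered in each mark. These were set to be marked in every diet library and in no control, so recovery of weaker differences was not tested. Python (3.11.15), numpy (2.4.6), pandas (2.3.3) and matplotlib (3.10.9) were used.

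The members and lists were chosen with earlier results of these data known. Values are given by group for members gained or lost in any comparison or with an adjusted p under 0.05, and for up to 5 members with the largest differences each way per mark, the others by counts; the further members with values by library (Rsad2, Nlrc5, Bst2, Usp18, Ifih1) were picked after their values were seen. Promoters of 8 members (Gbp6, Iigp1, Mx1, Mx2, Nlrc5, Oas2, Usp18 and Zbp1) had no entry in the sequence table. Alternatives varied the window (500 and 5000 bp), the overlap (200 bp), peak numbers, the share of peaks kept and total signal. They also varied the annotation, the cohorts, the grouping by treatment field, the replicate block and single libraries. Those on the full annotation, single cohorts and sets of libraries set aside were chosen after seeing the data.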

Additional observations from a re-analysis of the deposited data

Results flagged for a closer look

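Mx2, a GTPase that restricts virus entry to the nucleus in other mammals, is annotated as a polymorphic pseudogene in the reference strain and lay outside the promoters tested, yet its start site was marked. H3K4me3 was present in 9 of 10 control and 11 of 11 diet libraries, H3K27ac in 8 of 9 and 11 of 12, H3K4me1 in 8 of 10 and 12 of 12, and H3K27me3 in 1 of 10 and 0 of 10. It was set apart because a peak appeared in data that the comparisons left out, and the difference between diet and control was not tested. Groups held at most 3 libraries, so single libraries far from the rest of a group were not searched for.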

How the results depend on the processing

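No presence call of a member passed the adjusted threshold under any alternative run. Some differences named by group changed direction. At Gbp3 the H3K27ac difference was 25 points at equal peak numbers (exact permutation p = 0.12), and it ranged from -16.7 to 8.33 without single libraries. At Ifih1 the H3K4me1 difference, -16.7 points as reported, was 12.5 at equal peak numbers (exact permutation p = 0.54). Deviations of same-numbered libraries were at most weakly correlated (-0.161 to 0.148, over 0.1 in 2 of 9 pairs of H3K27ac and in none of the other marks). The main test did not pair them. Such correlations cannot exclude that same-numbered libraries were handled together. With the replicate block, adjusted calls of members stayed at 0, and members with an unadjusted exact p under 0.05 and a higher share with diet went from 3 to 1 in H3K4me3, 4 to 1 in H3K27ac and 12 to 5 in H3K4me1, while Oas1a in H3K27me3, the member with a lower share, no longer had a p under 0.05.

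Gains in H3K4me3 were 8 as reported, 5 at equal peak numbers and 15 with the 50% of peaks of largest total coverage. They were 0 by the treatment field, 0 in the 12-week cohort alone, and 5 without the mismatched libraries. Gains in H3K27ac went from 8 to 1 and in H3K4me1 from 17 to 2 in the 12-week cohort alone. Gains in H3K27me3 went from 0 to 1 at equal peak numbers and 2 with the 50% of peaks of largest total coverage. Losses in H3K27ac went from 1 to 0 at equal peak numbers and in the 25-week cohort alone, and to 4 without the 4 libraries that stood apart, where some groups held 1 or 2 libraries. Losses in H3K27me3 went from 0 to 1 with the 5000 bp window and with the full annotation. By total signal, 335 of all promoters passed the adjusted percentile threshold in H3K4me3 in the exact permutation test, against 28 as reported. By the same exact permutation test, 2 of the 335 were members, Irf1 (adjusted p = 0.0342) and Usp18 (adjusted p = 0.0217). The cause of these differences was not tested.

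Leaving out 1 library at a time, gains ranged from 8 to 13 in H3K4me3 (most without CC_l replicate 2), 8 to 28 in H3K27ac (without CCC replicate 1), 17 to 26 in H3K4me1 (without H replicate 3) and 0 to 1 in H3K27me3. Losses ranged from 1 to 4 in H3K27ac (without HC replicate 3), 0 to 1 in H3K4me1 and 0 to 5 in H3K27me3 (without CC_l replicate 2). Percentile calls in H3K4me3, by the exact permutation test, ranged from 0 to 5: without H replicate 3, Ifit1 (adjusted p = 0.03), Ifi47 (0.03), Gm5431 (0.0408), Usp18 (0.0408) and Oasl2 (0.0438) passed, among 387 promoters. The mean number of further members marked with diet ranged from 2.79 to 5.54 in H3K4me3, 4.08 to 9.08 in H3K27ac, 10.6 to 12.6 in H3K4me1 and -1.25 to -0.25 in H3K27me3.

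The lists give no read number per library, so an absent peak is no evidence of an absent mark. Groups of 2 or 3 limit each comparison.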

Other observations

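Beyond the members, other genes of the interferon pathway were counted in the same way. Of 43 further interferon-induced genes, 13 of 38 tested for H3K4me1 and 9 of 32 for H3K27ac had a higher share with diet at an unadjusted exact permutation p under 0.05, and 4 of 25 for H3K4me3, against 5.46%, 3.19% and 3.41% of all promoters. A lower share at p under 0.05 was found for 1 of them in H3K27ac and for 0 in the other active marks, by the same exact test. Gbp8, a guanylate-binding protein outside the list, had H3K4me1 in 1 of 10 controls and 9 of 12 diet libraries (62.5 points, exact permutation p = 0.004), and Gbp4 in 1 of 10 and 8 of 12 (54.2 points, exact permutation p = 0.01). Oas1g, next to Oas1a, had H3K4me3 in 0 of 10 controls and 5 of 11 diet libraries (50 points, exact permutation p = 0.0167) and H3K27me3 in 7 of 10 controls and 3 of 10 diet libraries. No gene of this list passed the adjusted threshold.

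Among 20 receptors, kinases and upstream factors, 3 of 19 had H3K4me1 more often with diet before adjustment (5.46% of all promoters), 2 of 17 had H3K27ac (3.19%) and 0 of 7 H3K4me3 (3.41%), at an exact permutation p under 0.05. Tbk1, the kinase that activates IRF3, and Tmem173, which encodes STING, each had it in 0 of 10 controls and 8 of 12 diet libraries (66.7 points, exact permutation p = 0.002 and 0.0025). Cgas, the DNA sensor upstream of STING, had H3K27me3 in 10 of 10 controls and 3 of 10 diet libraries (-66.7 points, exact permutation p = 0.002, adjusted p = 0.3).

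The macrophage markers that passed the adjusted threshold by H3K27me3 percentile were C1qa, marked in 10 of 10 controls and 6 of 10 diet libraries (adjusted p = 0.0442), and C1qb, in 10 of 10 and 4 of 10 (adjusted p = 0.0395), each lower with diet in the exact permutation test. In H3K4me3, Lyz2 was marked in 0 of 10 controls and 7 of 11 diet libraries and Ptprc in 1 of 10 and 9 of 11.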
